A study of Mus musculus with 14 samples.

Results

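The genes described are 10 immediate early genes, Fos, Fosb, Jun, Junb, Atf3, Egr1, Egr2, Nr4a1, Ier2 and Dusp1, in thymic lymphomas of mice. They were chosen by name, as the probe sets that map to one of these symbols and to no other gene. The rule found 12 of 16602 probe sets that name a single gene, and 10 of 10254 genes. Fosb, Junb, Ier2 and 5 others had 1 probe set each, and Jun and Egr2 had 2 each. The label under which the genes were gathered calls them transcription factors, and that holds for most of them, but Dusp1 encodes a phosphatase.

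Total RNA of 14 tumours was hybridised, 1 array per tumour. There were 5 Hif1a+/- tumours, 4 Hif1aKI/+ tumours and 5 Hif1a+/+ tumours. All mice, the Hif1a+/+ mice included, carried p53 R270H on both alleles and had a mixed C57BL/6-129/SvEvTac background. The KI allele is named in the labels without its content, and ages are not given there. Tumours were taken when the mice showed respiratory distress and were compared to find expression differences between genotypes that might account for tumour onset and incidence. The tumours are labelled as biological replicates, and each tumour is 1 value. Values are given in the order of the tumours' numbers, which are 1 to 5, with no 2 among the Hif1aKI/+ tumours analysed.

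Immediate early genes are transcribed within minutes of a stimulus, without new protein synthesis, from transcription factors such as SRF, its ternary complex partners and CREB that already sit in the cell and are switched on by kinase cascades. Their products then drive a later wave of genes. Fos and Jun family proteins pair through leucine zippers to form AP-1. In thymocytes the T cell receptor induces Egr and Nr4a genes, which take part in selection. Handling, heat and ischaemia of a tissue can induce the same genes before it is preserved.

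The values are log2 probe set levels, in which a step of 1 is a doubling. All levels lay between 1.79 and 15.6, and the array medians lay between 7.91 and 8.03. The distribution has a separate mode of low values, bounded at 4.39, where a probe set gave no signal above background, and 28.4% of the genes had a mean below that boundary. Hif1a itself ranged over 12.24 to 12.82 in Hif1a+/- tumours, 11.75 to 12.25 in Hif1aKI/+ tumours and 12.44 to 13.04 in Hif1a+/+ tumours, and passed the test in no comparison. All 10 measured T cell markers had a mean above the boundary, and their mean level was 12.39 to 12.95 in Hif1a+/- tumours, 12.65 to 12.72 in Hif1aKI/+ tumours and 12.16 to 12.90 in Hif1a+/+ tumours. In bulk tumour RNA, fewer cells of a type and less RNA per cell cannot be told apart.

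The 250 bases before the start of transcription were looked up in RefSeq on build GRCm38.p6 for 8 of the 10 genes, all but Egr1 and Ier2. Of these 8 genes, 7 held TGACG, the core of a CREB and ATF site, on either strand, and Jun did not, and 17.8% of all 32851 RefSeq windows of this length hold it. The CArG box bound by SRF was found before Egr2 alone, in 4 of its 5 windows, against 1.47% of all windows. The AP-1 site TGANTCA was found before 0 of the 8 genes, against 6.75% of all windows. A match of letters is a description and not a site of binding. Bases farther upstream or past the start were not searched, so a motif not found before a gene here may lie there. The windows of 4 genes that the results below turn on are shown, Fos for its difference between genotypes, Jun and Egr2 for their likeness over tumours and Dusp1 for its even level, with matches to TGACG on either strand and to the CArG box in capitals. The Fos window lies on the plus strand at chr12:85473640-85473889, the Jun window on the minus strand at chr4:95052223-95052472, one Egr2 window on the plus strand at chr10:67537619-67537868 and the Dusp1 window on the minus strand at chr17:26508473-26508722.
Fos: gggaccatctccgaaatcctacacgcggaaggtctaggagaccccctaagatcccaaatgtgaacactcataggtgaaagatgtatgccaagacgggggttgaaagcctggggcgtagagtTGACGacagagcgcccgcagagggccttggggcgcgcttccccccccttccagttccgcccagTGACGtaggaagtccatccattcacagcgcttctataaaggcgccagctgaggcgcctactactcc
Jun: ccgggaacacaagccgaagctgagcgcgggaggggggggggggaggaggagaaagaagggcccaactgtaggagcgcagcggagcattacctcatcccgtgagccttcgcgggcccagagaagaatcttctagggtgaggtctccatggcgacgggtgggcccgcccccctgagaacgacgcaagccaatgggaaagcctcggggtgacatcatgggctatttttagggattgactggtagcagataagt
Egr2: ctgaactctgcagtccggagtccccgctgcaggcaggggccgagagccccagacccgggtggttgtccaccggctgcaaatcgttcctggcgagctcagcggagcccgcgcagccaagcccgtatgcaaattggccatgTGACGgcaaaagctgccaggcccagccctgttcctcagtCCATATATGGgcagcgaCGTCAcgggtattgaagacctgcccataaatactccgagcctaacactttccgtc
Dusp1: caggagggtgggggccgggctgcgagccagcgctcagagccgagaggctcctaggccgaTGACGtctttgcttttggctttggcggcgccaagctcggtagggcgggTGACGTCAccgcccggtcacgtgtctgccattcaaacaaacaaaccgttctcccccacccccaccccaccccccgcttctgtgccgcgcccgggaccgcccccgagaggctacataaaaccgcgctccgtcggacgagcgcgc
The Fos window held TGACG at 129 and 66 bases before the start and a TATAAA box at 33 bases, a motif in 12.4% of all windows. The Egr2 window held the CArG box at 72 bases, between a TGACG at 111 bases and its reverse complement at 55 bases. The Dusp1 window held the whole palindrome TGACGTCA at 143 bases, which 1.55% of all windows hold, and none of the other 7 genes did. The letters ACGTG, the core bound by HIF proteins, were found before Egr2 and Dusp1 and in 16.6% of all windows. Before Egr2 they lay in another window, at chr10:67535249-67535498, and not in the one shown. That window held neither TGACG nor the CArG box. The EGR site GCGNGGGCG was found before Fosb and Nr4a1 and in 4.70% of all windows.

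Fos (chromosome 12, 85473890 to 85477274), the founding AP-1 subunit, was well above background in every tumour. Of the members it had the smallest unadjusted p in limma in both comparisons with Hif1a+/+ tumours. Its difference was the largest in Hif1aKI/+ against Hif1a+/+ tumours. In Hif1a+/- against Hif1a+/+ tumours that of Nr4a1, at -1.06, was slightly larger than that of Fos, at -1.03. The level of Fos was 8.96, 7.31, 8.70, 8.57 and 9.91 in the 5 Hif1a+/- tumours. It was 8.24, 7.82, 7.83 and 8.46 in the 4 Hif1aKI/+ tumours, and 9.89, 9.46, 9.03, 9.78 and 10.44 in the 5 Hif1a+/+ tumours. All 4 Hif1aKI/+ tumours and 4 of the 5 Hif1a+/- tumours lay below the lowest Hif1a+/+ tumour, and the fifth Hif1a+/- tumour lay inside the Hif1a+/+ range. Group means were 8.69 ± 0.93 in Hif1a+/- tumours, 8.09 ± 0.32 in Hif1aKI/+ tumours and 9.72 ± 0.52 in Hif1a+/+ tumours (SD, n = 5, 4 and 5).

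The Hif1aKI/+ minus Hif1a+/+ difference of Fos was -1.63 ± 0.43 (log2, SE of the fit), a 3.10-fold lower level with a 95% confidence interval of -2.58 to -0.69. The Hif1a+/- minus Hif1a+/+ difference was -1.03 ± 0.41, or 2.04-fold lower, with an interval of -1.92 to -0.14, and -0.69 without Hif1a+/- tumour 2, the lowest. Between Hif1a+/- and Hif1aKI/+ tumours the difference was 0.60 ± 0.43, with an interval of -0.34 to 1.55. None of the 3 passed the test over all genes. With limma and Benjamini-Hochberg adjustment over 10254 genes, Fos had an adjusted p of 0.984 in Hif1aKI/+ against Hif1a+/+ (0.00272 unadjusted), 0.567 in Hif1a+/- against Hif1a+/+ (0.0269 unadjusted) and 1 in Hif1a+/- against Hif1aKI/+. The limma F test over the 3 genotypes gave Fos an adjusted p of 0.863. Both heterozygous groups share the same Hif1a+/+ tumours.

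**Figure D1:**
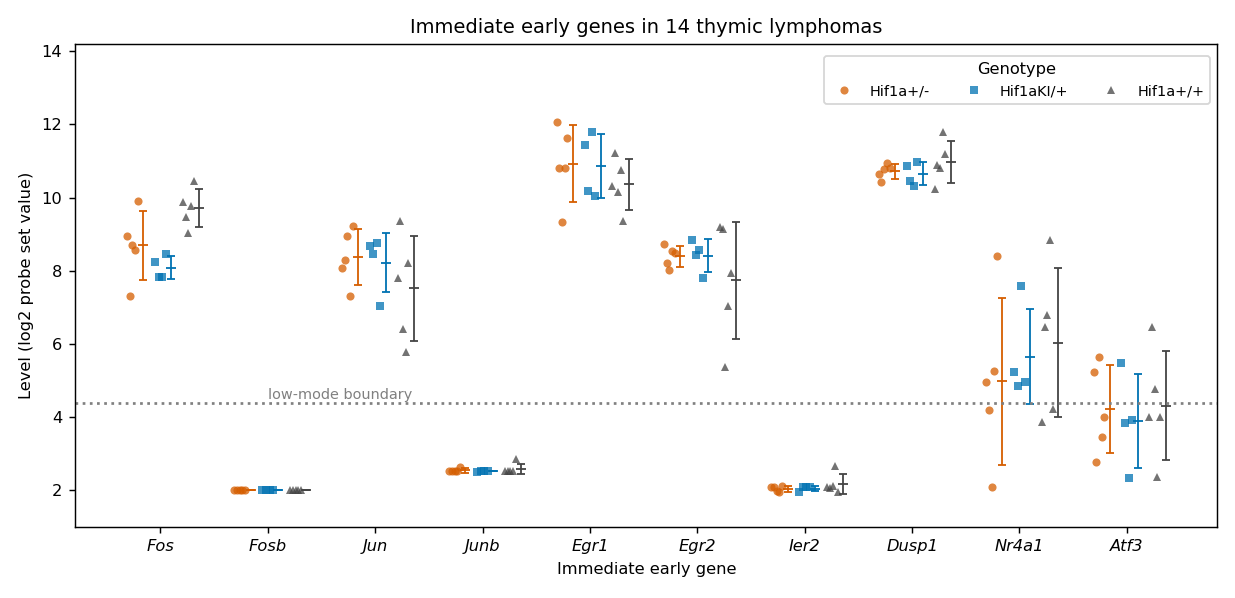
Level of each immediate early gene (log2 probe set value, vertical axis) in 14 thymic lymphomas by Hif1a genotype, with 1 point per tumour and bars giving the mean and SD of a genotype. The dotted line is the low-mode boundary at 4.39, and all 4 Hif1aKI/+ points of Fos lie below its lowest Hif1a+/+ point while Fosb, Junb and Ier2 stay below the boundary in every tumour.

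Jun (chromosome 4, 95049036 to 95052222), the main partner of Fos in AP-1, had its lowest mean where that of Fos was highest, in Hif1a+/+ tumours, with groups that overlapped. Its levels were 8.08, 8.31, 8.95, 7.32 and 9.23 in Hif1a+/- tumours. It had 8.66, 8.45, 8.75 and 7.03 in Hif1aKI/+ tumours, and 7.82, 9.35, 6.41, 5.78 and 8.22 in Hif1a+/+ tumours. The lowest and the highest Jun levels of the study were both in Hif1a+/+ tumours, so that every other tumour lay inside their range. The log2 difference was 0.86 ± 0.65 in Hif1a+/- against Hif1a+/+ and 0.71 ± 0.69 in Hif1aKI/+ against Hif1a+/+ (SE), with intervals of -0.56 to 2.28 and -0.80 to 2.21. Leaving out 1 tumour at a time gave 0.43 (without Hif1a+/+ tumour 4) to 1.32 (without Hif1a+/+ tumour 2) for Hif1a+/- and, without the same 2 tumours, 0.28 to 1.17 for Hif1aKI/+. The Hif1aKI/+ difference was also 0.43 without Hif1a+/+ tumour 3 and 1.11 without Hif1aKI/+ tumour 5. The second Jun probe set stayed below the boundary in every tumour.

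Fosb (chromosome 7, 19302696 to 19310118) and Junb (chromosome 8, 84976909 to 84978748), both AP-1 subunits, gave no signal above background in any tumour. Fosb spanned 0.0127 on the log2 scale over all 14 tumours. Junb lay between 2.51 and 2.84. A level at background is a limit of these probe sets and does not show that the transcript is absent. Atf3 (chromosome 1, 191170296 to 191183333), a stress-induced ATF family factor that can pair with Jun proteins, was above the boundary in 5 of the 14 tumours. It had 5.24, 2.76, 5.64, 3.47 and 4.00 in Hif1a+/- tumours, 5.48, 3.84, 2.35 and 3.93 in Hif1aKI/+ tumours, and 3.99, 6.47, 4.77, 2.35 and 4.00 in Hif1a+/+ tumours. Each genotype had tumours on both sides of the boundary, and the Atf3 groups overlapped.

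Egr1 (chromosome 18), a zinc finger factor induced by growth factors and by the T cell receptor, had a high level in all tumours. It was 12.08, 10.80, 9.33, 10.81 and 11.63 in Hif1a+/- tumours, 11.43, 10.19, 11.79 and 10.04 in Hif1aKI/+ tumours, and 10.32, 11.22, 10.16, 10.74 and 9.36 in Hif1a+/+ tumours. The log2 difference was 0.57 ± 0.54 in Hif1a+/- against Hif1a+/+ and 0.50 ± 0.58 in Hif1aKI/+ against Hif1a+/+ (SE), about as large as its error, and the groups overlapped. The Hif1a+/- difference was 0.28 without Hif1a+/- tumour 1, 0.97 without Hif1a+/- tumour 3 and 0.32 without Hif1a+/+ tumour 5. The Hif1aKI/+ difference was 0.31, 0.19 and 0.78 without Hif1aKI/+ tumours 1, 4 and 5 in turn, and 0.25 without Hif1a+/+ tumour 5.

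Egr2 (chromosome 10, 67534469 to 67542188), a relative of Egr1 with a role in T cell selection and tolerance, was even in both heterozygous groups and uneven in Hif1a+/+ tumours. Its levels were 8.73, 8.20, 8.01, 8.55 and 8.48 in Hif1a+/- tumours, 8.85, 8.44, 8.58 and 7.79 in Hif1aKI/+ tumours, and 9.20, 9.15, 5.36, 7.05 and 7.95 in Hif1a+/+ tumours. The SD was 0.29 in Hif1a+/- tumours, 0.45 in Hif1aKI/+ tumours and 1.61 in Hif1a+/+ tumours, a difference in spread that was not tested. The second Egr2 probe set also had its lowest level, 4.43, in Hif1a+/+ tumour 3. The log2 difference was 0.65 ± 0.62 in Hif1a+/- against Hif1a+/+ and 0.67 ± 0.66 in Hif1aKI/+ against Hif1a+/+ (SE). They were 0.06 and 0.08 without Hif1a+/+ tumour 3, and leaving out 1 tumour at a time gave at most 1.02 and 1.04.

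Nr4a1 (chromosome 15, 101253902 to 101274795), the orphan receptor Nur77 that T cell receptor signals induce, varied most. Its level was 4.96, 4.20, 2.08, 5.27 and 8.40 in Hif1a+/- tumours, 5.22, 4.85, 7.59 and 4.96 in Hif1aKI/+ tumours, and 3.85, 6.47, 6.80, 8.83 and 4.23 in Hif1a+/+ tumours. It was above the boundary in 10 tumours, its highest levels by genotype were 8.40, 7.59 and 8.83, and the groups overlapped. Its SD within genotypes, 1.97, was larger than that of 97.0% of all genes, and its intervals were the widest of the 10 genes. The log2 difference was -1.06 ± 1.20 in Hif1a+/- against Hif1a+/+ and -0.38 ± 1.28 in Hif1aKI/+ against Hif1a+/+ (SE). Both depended on single tumours. Leaving out 1 tumour at a time gave -1.91 (without Hif1a+/- tumour 5) to -0.33 (without Hif1a+/- tumour 3) for Hif1a+/-, with -0.36 without Hif1a+/+ tumour 4 and -1.60 without Hif1a+/+ tumour 1. For Hif1aKI/+ it gave -1.03 (without Hif1aKI/+ tumour 4) to 0.32 (without Hif1a+/+ tumour 4), and each tumour of these groups but Hif1a+/+ tumour 2 moved it by over 1.5 times when left out. Array weights gave -1.95 for Hif1a+/- and -1.17 for Hif1aKI/+.

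Dusp1 (chromosome 17, 26505591 to 26508472), the phosphatase that inactivates MAP kinases and so ends the signal that induces it, was the most even of the 6 members above background. It had 10.64, 10.42, 10.78, 10.95 and 10.81 in Hif1a+/- tumours, 10.86, 10.45, 10.32 and 10.98 in Hif1aKI/+ tumours, and 10.23, 10.88, 10.80, 11.79 and 11.19 in Hif1a+/+ tumours. Its SD within genotypes was 0.401, against a median of 0.465 over the genes above the boundary. The log2 difference was -0.26 ± 0.25 in Hif1a+/- against Hif1a+/+ and -0.33 ± 0.26 in Hif1aKI/+ against Hif1a+/+ (SE), and all tumours of both groups lay inside the Hif1a+/+ range. They were -0.06 and -0.12 without Hif1a+/+ tumour 4, the highest, and -0.45 and -0.51 without Hif1a+/+ tumour 1, the lowest. The Hif1aKI/+ difference was -0.22 without Hif1aKI/+ tumour 4. Ier2 (chromosome 8, 84661331 to 84662852), which encodes a nuclear protein made early in the growth response, was at background in all tumours, between 1.94 and 2.65.

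**Figure D2:**
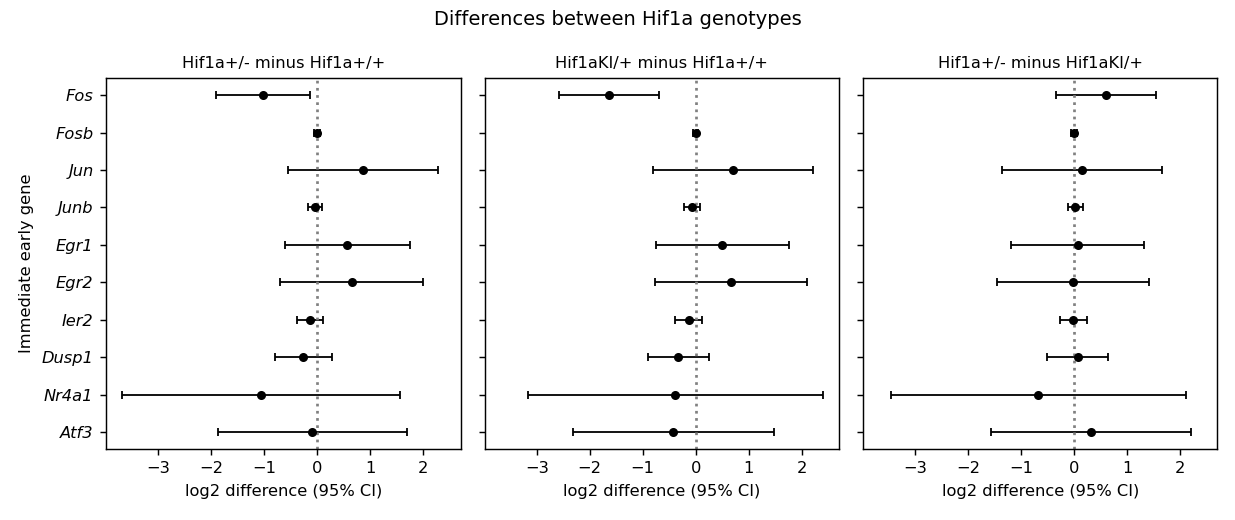
Log2 difference of each immediate early gene between genotypes (horizontal axis), with points for the limma estimate and bars for its 95% confidence interval. The intervals of Fos lie below 0 for Hif1a+/- minus Hif1a+/+ and Hif1aKI/+ minus Hif1a+/+, and all other intervals cross 0.

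Read as a group, the 10 genes were split in direction. In Hif1a+/- against Hif1a+/+ tumours 3 were higher and 7 lower, with a median log2 difference of -0.07 against -0.0038 over all genes, and 0 of 10 passed the adjusted p threshold of 0.05 in limma, where 0.0195% of all genes did (Dhx15 and Stab1, named after their values were seen). At an unadjusted p under 0.05, 1 of the 10 was lower (Fos) and 0 higher, where 3.64% of all genes were lower and 4.3% higher. In that comparison 0 of 10 were lower or higher without overlap, where 0.741% of all genes were lower and 0.731% higher without overlap. In Hif1aKI/+ against Hif1a+/+ tumours 3 were higher and 7 lower, with a median of -0.10 against -0.0024 over all genes, and 0 of 10 passed in limma, as did 0% of all genes. At an unadjusted p under 0.05, 1 of the 10 was lower (Fos) and 0 higher, where 1.63% of all genes were lower and 2.72% higher. Fos was also the 1 member whose Hif1aKI/+ and Hif1a+/+ groups did not overlap, where 0.878% of all genes were lower and 0.878% higher without overlap. In Hif1a+/- against Hif1aKI/+ tumours 7 were higher and 3 lower, 0 of 10 passed in limma, as did 0% of all genes, and 0 had an unadjusted p under 0.05, where 1.41% of all genes were higher and 1.65% lower. There too 0 of 10 differed without overlap, where 0.234% of all genes were higher and 0.439% lower. Among the 6 members with a mean above the boundary the split was 3 higher and 3 lower against Hif1a+/+ in both heterozygous groups.

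From tumour to tumour the members were not high or low together. Over the 15 pairs of the 6 members above background, Pearson's r over the 14 tumours was positive in 7 and negative in 8, from -0.51 to 0.69, with a median of -0.08. The highest level fell in different tumours, in Hif1a+/+ tumour 5 for Fos, Hif1a+/+ tumour 2 for Jun and Atf3, Hif1a+/- tumour 1 for Egr1, Hif1a+/+ tumour 1 for Egr2 and Hif1a+/+ tumour 4 for Dusp1 and Nr4a1. Fos followed Dusp1 with r = 0.48 (permutation p = 0.0798, adjusted p = 0.593, Spearman's rho = 0.39 with permutation p = 0.17). With Nr4a1 its r was 0.21 (permutation p = 0.473, adjusted p = 0.838, rho = 0.17 with permutation p = 0.553), and with Jun, its AP-1 partner, -0.14 (permutation p = 0.638, adjusted p = 0.894, rho = -0.09 with permutation p = 0.75). With Egr1 it was -0.18 (permutation p = 0.522, adjusted p = 0.852, rho = -0.13 with permutation p = 0.657), and with Egr2 -0.08 (permutation p = 0.801, adjusted p = 0.948, rho = -0.04 with permutation p = 0.905). Without the 2 tumours farthest from the median of Fos, Hif1a+/+ tumour 5 and Hif1a+/- tumour 2, r was 0.33 for Dusp1, 0.29 for Nr4a1, -0.17 for Jun, 0.05 for Egr1 and -0.06 for Egr2. Without the 2 tumours farthest in the other gene instead, r was 0.74, -0.15, 0.11, 0.04 and 0.17 in the same order. For Dusp1 those were Hif1a+/+ tumours 4 and 1. Within genotypes r was 0.34, 0.17, 0.17, 0.04 and 0.25 for the same 5 genes. Of the other 9 members, 0 were correlated with Fos at an adjusted p of 0.05, as were 0% of 10253 genes, and 1, Junb, had a permutation p under 0.05, where 8.22% of all genes did. The Junb levels behind that r of 0.59 (permutation p = 0.00665, adjusted p = 0.587, rho = 0.58 with permutation p = 0.0309) were at background in all 14 tumours. Without Hif1a+/+ tumour 5 and Hif1a+/- tumour 2, the r of Junb with Fos was 0.45.

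The closest pair above background was Jun with Egr2, at r = 0.69 over 14 tumours (permutation p = 0.00684, adjusted p over all genes = 0.338, Spearman's rho = 0.49 with permutation p = 0.0744). Without Hif1a+/+ tumours 3 and 4, the 2 farthest from the median of Jun, r was 0.29, so the relation rests on those tumours. Within genotypes r was 0.65. Egr1 and Nr4a1 followed each other with r = 0.55 (permutation p = 0.041, adjusted p = 0.555, rho = 0.49 with permutation p = 0.0811), and r was 0.31 without the 2 tumours farthest in Egr1, Hif1a+/- tumour 3 and Hif1a+/+ tumour 5. It was 0.58 without the 2 farthest in Nr4a1, Hif1a+/+ tumour 4 and Hif1a+/- tumour 5, and 0.67 within genotypes.

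**Figure D3:**
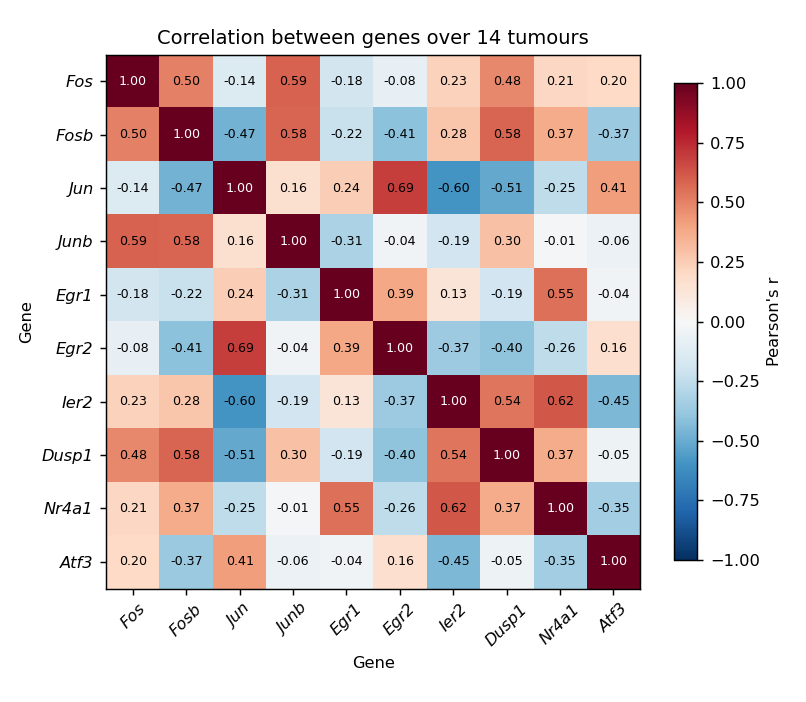
Pearson's r between each pair of the 10 immediate early genes over 14 tumours, from -1 (blue) to 1 (red), with the value written in each square. Positive and negative values are mixed, the pair of Jun and Egr2 at 0.69 is the highest, and the values for Fosb, Junb and Ier2 come from background levels.

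The 2 lowest levels of Jun and of Egr2 were in the Hif1a+/+ tumours with the lowest thymic epithelial marker levels. The 7 measured thymic epithelial markers averaged 3.38 in Hif1a+/+ tumour 3, 3.95 in tumour 4 and 5.02 in tumour 5, against 6.73 and 8.02 in Hif1a+/+ tumours 2 and 1. The range was 6.03 to 8.57 in Hif1a+/- tumours, 7.30 to 8.74 in Hif1aKI/+ tumours and 3.38 to 8.02 in Hif1a+/+ tumours. All 7 markers were higher in both heterozygous groups than in Hif1a+/+ tumours, with median log2 differences of 1.89 in Hif1a+/- and 2.48 in Hif1aKI/+ tumours, and 0 passed the test. At an unadjusted p under 0.05 in limma, 5 of 7 were higher in Hif1a+/- tumours, where 4.3% of all genes were. In Hif1aKI/+ tumours 6 of 7 were, where 2.72% of all genes were. Egr2 followed the marker mean with r = 0.73 (permutation p = 0.00397, adjusted p = 0.192 over 108 relations of 6 members with 18 lists, rho = 0.38 with permutation p = 0.175). Jun followed it with r = 0.65 (permutation p = 0.0128, adjusted p = 0.255, rho = 0.40 with permutation p = 0.155). Without Hif1a+/+ tumours 3 and 4, r was 0.12 for Egr2 and 0.09 for Jun. The part of epithelial content in the levels of Jun and Egr2 was not tested.

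Nr4a1 followed the mean of the 10 measured T cell activation genes, among them Cd5, Cd44, Irf4 and Tnfrsf9, with r = 0.78 over 14 tumours (permutation p = 0.00093, adjusted p = 0.10 over the 108 relations, rho = 0.73 with permutation p = 0.00434). Of the 10 genes, 4 averaged below the boundary, Il2, Ifng, Xcl1 and Nfatc2. Without the 2 tumours farthest in that list r was 0.65, and within genotypes it was 0.76. Nr4a1 ran against the 11 heat shock genes with r = -0.70 (permutation p = 0.00534, adjusted p = 0.192, rho = -0.71 with permutation p = 0.0061), at -0.63 without the 2 tumours farthest in that list and -0.69 within genotypes. Of the 108 relations 0 passed an adjusted p of 0.05, and 13 had a permutation p under 0.05.

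**Figure D4:**
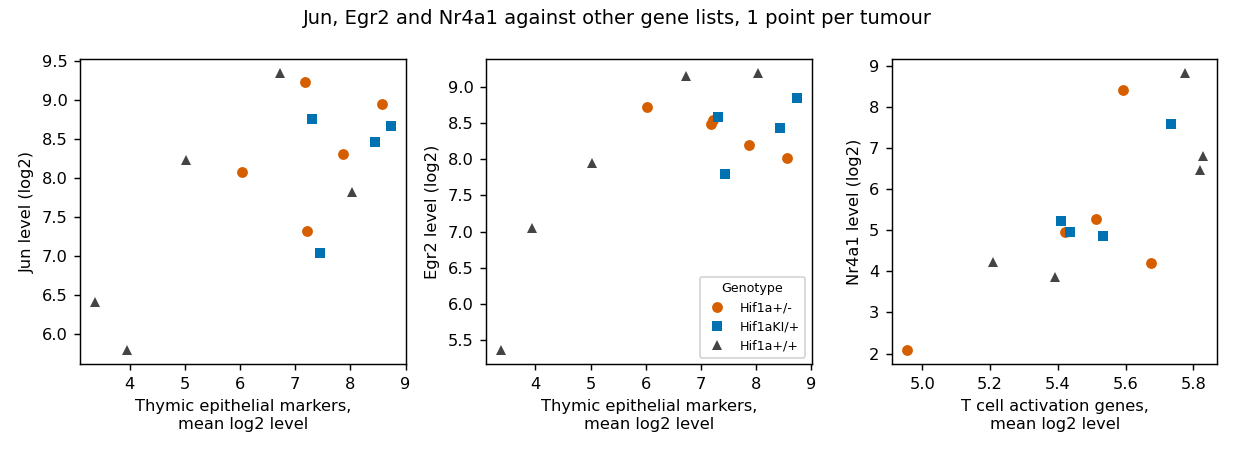
Level of Jun, Egr2 and Nr4a1 (log2, vertical axes) against the mean log2 level of thymic epithelial markers or T cell activation genes (horizontal axes), with 1 point per tumour and symbols for the genotype. The lowest points of Jun and Egr2 are the Hif1a+/+ tumours with epithelial means of 3.38 and 3.95, and Nr4a1 and the activation genes are both lowest in Hif1a+/- tumour 3.

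Of other early response genes 0 passed the test. Of 30 measured genes in a list of other immediate early and early response genes, 9 were higher and 21 lower in Hif1a+/- than in Hif1a+/+ tumours (median -0.32 on the log2 scale, against -0.0038 over all genes, of which 5518 of 10254 were lower), and 12 were higher and 18 lower in Hif1aKI/+ tumours (median -0.07, with 5360 of 10254 genes lower). In limma 0 passed in either comparison. At an unadjusted p under 0.05, 3 of 30 were lower in Hif1a+/- tumours, where 3.64% of all genes were, and 1 of 30 in Hif1aKI/+ tumours, where 1.63% were, and 0 were higher. Socs3, an inhibitor of cytokine signalling, averaged 8.77 in Hif1a+/- and 10.45 in Hif1a+/+ tumours (log2 difference -1.68 ± 0.55, adjusted p = 0.514). Klf4, a Krüppel-like factor, averaged 3.64 in Hif1a+/- and 5.86 in Hif1a+/+ tumours (-2.22 ± 0.82, adjusted p = 0.54), the first of them at background. Its relative Klf2, a regulator of T cell quiescence, averaged 3.95 in Hif1a+/- tumours, also at background, and 5.36 in Hif1a+/+ tumours (-1.40 ± 0.62, adjusted p = 0.61). In Hif1aKI/+ against Hif1a+/+ tumours the smallest p-values were those of Plk2 (-1.22 ± 0.55), Klf4 (-1.88 ± 0.87) and Nfkbiz (-0.95 ± 0.45), each with an adjusted p of 0.984, of which Plk2 averaged below the boundary in both groups and Klf4, at 3.98, in Hif1aKI/+ tumours. A difference against a group at background depends on the level of that background.

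The mean of these 30 genes followed Fos with r = 0.62 over 14 tumours (permutation p = 0.0142, adjusted p = 0.255 over the 108 relations, rho = 0.69 with permutation p = 0.00769). It was 0.69 without the 2 tumours farthest in that list and 0.46 within genotypes. The endothelial marker mean followed Fos with r = 0.59 (permutation p = 0.0265, adjusted p = 0.309, rho = 0.56 with permutation p = 0.0428), at 0.35 without the 2 tumours farthest in the list and 0.68 within genotypes. The B cell marker mean ran against it with r = -0.61 (permutation p = 0.0215, adjusted p = 0.309, rho = -0.49 with permutation p = 0.0789), at -0.66 within genotypes. Without Hif1a+/- tumour 2 and Hif1aKI/+ tumour 4, the 2 farthest in the B cell list, r was -0.25. Without Hif1a+/+ tumour 5 and Hif1a+/- tumour 2, the 2 farthest in Fos, r was -0.67. Averages below the boundary were found for 5 of the 9 endothelial markers (Cdh5, Kdr, Tie1, Eng and Emcn). The same held for 2 of the 4 measured B cell markers (Ms4a1 and Cd79a), so part of both means is background.

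Fibroblast and adipocyte markers differed in the same direction as Fos. All 9 fibroblast markers were lower in both heterozygous groups than in Hif1a+/+ tumours, with median log2 differences of -1.38 in Hif1a+/- and -0.84 in Hif1aKI/+ tumours, and 0 passed the test. At an unadjusted p under 0.05 in limma, 6 of 9 were lower in Hif1a+/- tumours, where 3.64% of all genes were. In Hif1aKI/+ tumours 2 of 9 were, where 1.63% of all genes were. The mean level of the fibroblast markers was 7.31 to 8.59 in Hif1a+/- tumours, 7.98 to 8.93 in Hif1aKI/+ tumours and 8.91 to 10.01 in Hif1a+/+ tumours. Of the 9, Lum was at background, and the collagen genes Col1a1, Col1a2 and Col3a1 were not. The fibroblast mean followed Fos with r = 0.42 over all tumours (permutation p = 0.131, adjusted p = 0.525, rho = 0.38 with permutation p = 0.176), 0.44 without the 2 tumours farthest in the list and -0.12 within genotypes. All 6 adipocyte markers were likewise lower in both groups, and 9 of 11 macrophage markers were lower in Hif1a+/- tumours and 6 of 11 in Hif1aKI/+ tumours. At an unadjusted p under 0.05 in limma, 2 of the 6 and 4 of the 11 were lower in Hif1a+/- tumours, and 1 and 2 in Hif1aKI/+ tumours. Adipoq, Retn, Cd163 and Itgam averaged below the boundary over the 14 tumours. The adipocyte mean was 8.27, 9.54 and 8.60 in Hif1a+/+ tumours 2, 3 and 5, and 6.12 and 5.55 in Hif1a+/+ tumours 1 and 4. It was 5.31 to 6.66 in Hif1a+/- tumours and 5.67 to 6.75 in Hif1aKI/+ tumours. Thymic epithelial markers ran against Fos, with r = -0.51 (permutation p = 0.0652, adjusted p = 0.391, rho = -0.57 with permutation p = 0.0344), -0.58 without Hif1a+/+ tumours 3 and 4 and -0.02 within genotypes. The part of these cell types in the Fos differences was not tested.

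**Figure D5:**
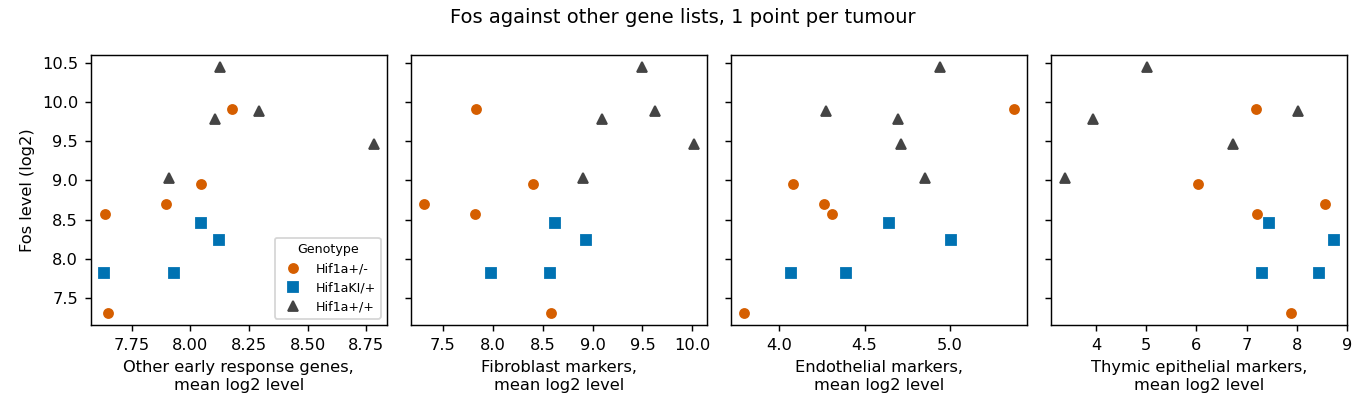
Fos level (log2, vertical axis) against the mean log2 level of other early response genes and of fibroblast, endothelial and thymic epithelial markers (horizontal axes), with 1 point per tumour and symbols for the genotype. Fos and the other early response genes have r = 0.62, and the Hif1a+/+ tumours lie at the high end of both Fos and the fibroblast markers. Hif1a+/- tumour 5 has a Fos level of 9.91 with a fibroblast mean of 7.83. Hif1aKI/+ tumour 1 has a fibroblast mean of 8.93, inside the Hif1a+/+ range, with a Fos level of 8.24.

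Of the upstream factors and relatives of these genes, 0 passed the test. In a list of SRF, its cofactors and the CREB family genes Creb1 and Crem, 4 of 8 measured genes were higher and 4 lower against Hif1a+/+ in both heterozygous groups. Elk1, a ternary complex factor that recruits SRF activity to early gene promoters, averaged 6.92 in Hif1a+/- and 6.38 in Hif1a+/+ tumours (log2 difference 0.54 ± 0.18, adjusted p = 0.516), and Srf averaged 10.35 in Hif1a+/- and 10.82 in Hif1a+/+ tumours (-0.47 ± 0.29, adjusted p = 0.71). Of 10 measured MAP kinase cascade genes, 4 were higher in Hif1a+/- and 6 in Hif1aKI/+ tumours. Of 8 other AP-1 family genes, 4 were higher in each, and Jund, a Jun paralogue with constitutive expression, had 12.85 in Hif1a+/- and 12.92 in Hif1aKI/+ tumours against 12.55 in Hif1a+/+ tumours (0.31 ± 0.17 and 0.37 ± 0.18, adjusted p = 0.679 and 0.984). Of 6 other dual specificity phosphatases, 3 were higher in each. Egr3, Egr4 and Nr4a3 had no probe set naming them alone, Nr4a2 was at background, and the EGR corepressor Nab1 differed by -0.42 ± 0.43 in Hif1a+/- and 0.03 ± 0.46 in Hif1aKI/+ against Hif1a+/+ tumours.

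Of the stress programmes that can accompany early gene induction, 0 genes passed the test against Hif1a+/+ tumours. Of 11 heat shock genes, 5 were higher and 6 lower in Hif1a+/- tumours, and 6 higher and 5 lower in Hif1aKI/+ tumours, against Hif1a+/+. At an unadjusted p under 0.05 in limma, 3 of the 11 were lower and 1 higher in Hif1a+/- tumours. Of all genes, 3.64% were lower and 4.3% higher there. In Hif1aKI/+ tumours 0 of the 11 had such a p, where 1.63% of all genes were lower and 2.72% higher. Of 9 integrated stress response genes, 6 were higher and 3 lower in Hif1a+/- tumours, and 8 higher and 1 lower in Hif1aKI/+ tumours with a median of 0.35 on the log2 scale. At the same unadjusted p, 1 was higher in Hif1a+/- and 2 in Hif1aKI/+ tumours, where 4.3% and 2.72% of all genes were, and 0 were lower. In Hif1aKI/+ tumours 2 of the 9 were higher without overlap, where 0.878% of all genes were. Of 13 hypoxia-induced genes, 5 were higher and 8 lower in Hif1a+/- tumours, and 9 higher and 4 lower in Hif1aKI/+ tumours. At that unadjusted p, 0 of the 13 differed in Hif1a+/- tumours and 1 was higher in Hif1aKI/+ tumours. The r of Fos with the means of these lists was -0.18, -0.09 and -0.34 (permutation p = 0.527, 0.761 and 0.232, adjusted p = 0.904, 0.959 and 0.636, rho = -0.14, -0.23 and -0.45 with permutation p = 0.635, 0.434 and 0.111), in the order heat shock, integrated stress response and hypoxia, and -0.08, -0.09 and -0.48 without the 2 tumours farthest in each list. Within genotypes r was -0.00091, 0.34 and -0.40 in the same order.

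By likeness to the mean of the 10 members, each standardised over the 14 tumours, the nearest of 7339 genes above background were Rragc (r = 0.85), Vsir (0.85), Csnk1a1 (0.83), Slc35a2 (0.83), Ric8a (0.83), Cd164 (0.78), Ankmy2 (0.77), Galnt4 (0.76), Wasf2 (0.75) and Midn (0.75). The most opposed were Cyb5r1 (-0.87), 1700037H04Rik (-0.86), Cnot9 (-0.84), Psmd5 (-0.83) and Imp4 (-0.83). Since 3 of the 10 members stayed at background, part of that mean is background variation. The 45 pairs of members had a median r of -0.0091, so the mean is not one of genes that rose and fell together. These r values are the extremes of 7339 genes and were not tested.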

How the data were processed

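Each tumour was measured on 1 Affymetrix expression array. The log2 probe set values were made and deposited by the authors with GCRMA and Partek, per the submitters' processing notes, which give no versions. A genome build, not given in the sources used here, does not enter these values. Of 18264 probe sets, 16602 name 1 gene in GEO's platform annotation, 603 name several and 1059 none. The probe set of highest mean stood for a gene, which left 10254 genes, with no filter on level. A mean for each genotype was fitted to the 14 arrays together (limma 3.58.1, R 4.3.3), and p was adjusted over all genes by the Benjamini-Hochberg method at a threshold of 0.05. Correlations used two-sided permutation tests with 100000 resamples (Python 3.11.15, numpy 2.4.6). Procedures across genes were also run on simulated data that used the means and SDs of these genes, with an outcome not given here. Promoter windows are RefSeq's, on GRCm38.p6.

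The members and gene lists were chosen with earlier results of these data known. All members are named, with up to 3 genes of smallest unadjusted p per list, genes that define a list, and the 10 genes most like and 5 most unlike the member mean. The relations of members other than Fos with the lists were added after the data were seen. The number of arrays limits the precision. Alternatives covered normalization, centring, a filter on level, probe set choice, moderation, array weights, the arrays fitted, a replicate block and leaving out each array.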

Additional observations from a re-analysis of the deposited data

Results flagged for a closer look

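In 6 of 30 groups of 4 or 5 tumours (10 genes in 3 genotypes), 1 tumour stood apart from the rest of its group by Dixon's test, which marks about 1 in 20 groups by chance. Of these, 5 are at background, where a small step stands out. The exception is Nr4a1, at 7.593 in Hif1aKI/+ tumour 4, against 5.221 in the next Hif1aKI/+ tumour. Junb was 2.646 in Hif1a+/- tumour 5 (next 2.516), 2.511 in Hif1aKI/+ tumour 1 (next 2.515) and 2.844 in Hif1a+/+ tumour 5 (next 2.522). Ier2 was 1.942 in Hif1aKI/+ tumour 1 (next 2.078) and 2.652 in Hif1a+/+ tumour 4 (next 2.11).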

How the results depend on the processing

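Over 22 settings, of which the filter on level left 6 of the 10 genes, 610 of 648 alternative differences of the 10 genes kept their direction, 38 changed sign and 0 passed the threshold. Fos kept its direction in every one, over -1.334 to -0.6853 in Hif1a+/- against Hif1a+/+ (adjusted p 0.4217 to 0.8337) and -1.839 to -1.453 in Hif1aKI/+ against Hif1a+/+ (0.571 to 1). The 2 genes called in Hif1a+/- against Hif1a+/+ became 0 with quantile normalization, centring, the filter on level, only the 2 groups compared, the replicate block or all probe sets tested singly (chosen after seeing the data), and 1 with trend and robust moderation. Leaving out 1 tumour gave 0 to 1 genes there, 0 to 2 in Hif1aKI/+ against Hif1a+/+ (1 without Hif1aKI/+ tumour 3, 2 without Hif1aKI/+ tumour 5) and 0 to 1 in Hif1a+/- against Hif1aKI/+. The cause was not tested. Array weights turned Atf3 in Hif1a+/- against Hif1a+/+ to 0.22 and, in Hif1a+/- against Hif1aKI/+, Egr2 to 0.003163 and Fosb to -9.122e-05, and centring turned Fosb to -0.01129. With the replicate block, Jun was -0.06787 and Egr1 -0.02564 in Hif1a+/- against Hif1aKI/+, and no other difference of the 10 genes changed sign. The numbers are not taken to pair tumours, since the residuals of the 13 same-numbered pairs had a mean correlation of -0.0060 (from -0.11 to 0.14), against 0.0015 for other pairs. Leaving out 1 tumour, the differences that changed sign in Hif1a+/- against Hif1aKI/+ were Atf3 (-0.1937 to 0.8503), Dusp1 (-0.04465 to 0.1752), Egr1 (-0.2205 to 0.4656), Egr2 (-0.2277 to 0.124), Fosb (-0.001429 to 0.001163), Ier2 (-0.04617 to 0.01152), Jun (-0.246 to 0.4163), Junb (-0.001255 to 0.03229) and Nr4a1 (-1.528 to 0.05273). In Hif1a+/- against Hif1a+/+ they were Atf3 (-0.5876 to 0.4421) and Junb (-0.06864 to 0.02359), and in Hif1aKI/+ against Hif1a+/+ Atf3 (-0.9461 to 0.1188) and Nr4a1 (-1.028 to 0.3162). With values centred on genotype means, r with Fos was 0.1745 for Jun, 0.0396 for Egr1, 0.2508 for Egr2 and -0.04513 for Ier2, and without the 2 tumours farthest in Fos it was 0.05047 for Egr1, each of opposite sign to all 14 tumours. The 4 members at or near background have differences that say little about their transcripts.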

Other observations

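Fosb lay at background in every tumour and spanned 0.0127 on the log2 scale, yet 803 of 10253 genes were correlated with it over the 14 tumours by Pearson's r at an adjusted p of 0.05 (permutation test), 770 of them with r above 0. Of the 803, 93.2% lay on average under the boundary of the low mode, against 28.4% of all genes. For Fos, Jun, Junb, Egr1, Egr2, Ier2, Dusp1, Nr4a1 and Atf3 the number of genes past the same test was 0, with 659 to 1426 (6.43% to 13.9% of 10253 genes) at a permutation p under 0.05. Fosb and Junb, both at background, were also the member pair with the highest Spearman's rho, 0.78 (permutation p = 0.00171, adjusted p = 0.0181).

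Egr1 followed the mean of Nr4a2, Nab1 and Nab2 with r = 0.64 (permutation p = 0.00753, adjusted p = 0.203 over 108 relations, rho = 0.70 with permutation p = 0.00674), at 0.38 without Hif1a+/- tumours 1 and 3, the 2 farthest in that list. Dusp1 ran against the thymic epithelial marker mean with r = -0.58 (permutation p = 0.0291, adjusted p = 0.309, rho = -0.45 with permutation p = 0.112), at -0.46 without Hif1a+/+ tumours 3 and 4.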
